A study of Homo sapiens with 18 samples.

Results

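The T cell receptor variable (V) segments are the genes annotated as TR_V_gene on chromosomes 7, 9 and 14 of hg19 in GENCODE release 44. There were 95 of them among 63827 annotated genes on chromosomes 1 to 22 and X. The alpha/delta locus on chromosome 14 held 49, the beta locus 36 and the gamma locus 9, both on chromosome 7, and 1 segment, TRBV20OR9-2, lay on chromosome 9. By class there were 40 TRAV, 5 TRAV/DV, 3 TRDV, 37 TRBV and 9 TRGV segments, and 1 alpha/delta segment, ENSG00000289723, has no symbol in the annotation. Chromatin bound by H1.2 or H1.5, both linker histones, was immunoprecipitated from undifferentiated HL-60/S4 cells, 1 human myeloid leukemia cell line, so that the 4 groups share the same untreated cells and differ in protocol and antibody. In xChIP, chromatin was fixed and sonicated and the antibody was added to the fragments. In xxChIP, the antibody was bound inside fixed and permeabilized cells and fixed there before sonication. Each group (H1.2 or H1.5 in either protocol) is represented by 1 list of enriched regions (peaks) that the authors merged from 3 replicates, and the 6 Input samples are not analysed here. A merged list has no spread between replicates and no read numbers, so depth is unknown, differences between lists were not tested, and the cell type could not be checked against marker genes. Where 4 values follow each other without names, the xChIP lists come first and the xxChIP lists second, each with H1.2 before H1.5. In this order the lists hold 142926, 139938, 143193 and 138491 peaks, and cover 26.4%, 16.3%, 20.2% and 17.2% of the known sequence.

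A T cell receptor gene is assembled in developing T cells by V(D)J recombination, in which a V segment is cut and joined to a joining (J) segment, in the beta and delta chains with a diversity (D) segment between them. The RAG recombinase cuts at a recombination signal that directly follows each V segment and consists of a conserved heptamer, a spacer and a conserved nonamer. Alpha and beta chains pair in most circulating T cells, gamma and delta chains pair in a smaller class, and the TRAV/DV segments can serve alpha or delta chains. HL-60/S4 is of the myeloid lineage, in which these genes are not assembled. Linker histones bind nucleosomes where the DNA enters and leaves and are known for their part in chromatin compaction.

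The recombination signals are shown because they mark the end of the segment at which joining takes place, and the coverage around that end is described further on. In each locus the segments with the highest and lowest summed peak coverage were taken from those with an exact heptamer. Ties at 0% (9 such segments at alpha/delta and 3 at beta) were settled by position, so that TRAV8-2 and TRBV6-4 are the first of their loci. TRDV1 was added after its sequence was seen, because its heptamer and nonamer both match the consensus. Capitals mark the positions of the heptamer (consensus CACAGTG) and, after a spacer fixed at 23 bp, of the nonamer (consensus ACAAAAACC). The nonamer position differs from its consensus at 0 bases in TRDV1, 1 in TRAV22, 3 in TRBV10-1 and TRBV6-4, 4 in TRGV3 and TRGV8 and 6 in TRAV8-2, and other spacer lengths were not searched. Sequences are from GRCh37 (hg19), on the strand of the segment, 5′ to 3′.
TRDV1, chr14:22564897-22564935, plus strand: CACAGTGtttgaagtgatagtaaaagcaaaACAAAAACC
TRAV22, chr14:22539472-22539510, plus strand: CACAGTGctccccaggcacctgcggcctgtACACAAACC
TRAV8-2, chr14:22315404-22315442, plus strand: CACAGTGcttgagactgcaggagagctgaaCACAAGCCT
TRBV10-1, chr7:142231534-142231572, minus strand: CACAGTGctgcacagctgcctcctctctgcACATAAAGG
TRBV6-4, chr7:142250664-142250702, minus strand: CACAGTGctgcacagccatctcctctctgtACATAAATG
TRGV3, chr7:38398074-38398112, minus strand: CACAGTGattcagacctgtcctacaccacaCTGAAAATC
TRGV8, chr7:38369905-38369943, minus strand: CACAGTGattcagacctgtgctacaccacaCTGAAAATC

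A lower share of V segments than of short genes lay at xChIP H1.2 peaks, and a higher share at xxChIP H1.5 peaks. A segment was counted as overlapped when at least 1 bp of the gene with 1000 bp on each side lay in a peak. In xChIP H1.2, 17 of 95 segments were overlapped (17.9%, 95% Wilson interval 11.5 to 26.8%), beside 65.2% of all genes and 44.3% of the 22689 genes of at most 1000 bp. In xChIP H1.5 there were 24 (25.3%, 17.6 to 34.8%), beside 51.1% of all genes and 26.9% of short genes. In xxChIP H1.2 there were 30 (31.6%, 23.1 to 41.5%), beside 47.2% and 26.7%. In xxChIP H1.5 there were 31 (32.6%, 24 to 42.6%), beside 44.1% and 22.7%. The short genes are the closer comparison, since a longer gene has more room for a peak. They were still shorter than the V segments, with a median length of 297 bp against 555 bp. The part of this in the shares was not tested. The interval for xChIP H1.2 lay below the share of short genes, that for xxChIP H1.5 lay above it, and the other two included it. The intervals cover counting error only, and neighbouring segments can share a peak. With a margin of 5000 bp, the xChIP H1.5 share passed from below to above that of short genes (57.9% against 55.8%). When at least 50% of the window had to be covered, the xxChIP H1.2 share passed from above to below (13.7% against 13.9%).

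The order of the lists was also seen in how much of the windows was covered. The mean share of a window under peaks was 9.01% (H1.2) and 12% (H1.5) in the xChIP lists and 16.9% and 17% in the xxChIP lists, whereas short genes gave 31.9%, 15.1%, 15.2% and 12.3%. The median was 0% in every list, since most windows held no peak. Peaks covered the whole window of 3, 3, 7 and 6 of the 95 segments in the same order of lists. Among the 22689 short genes, whole windows were covered at 5157, 1463, 1685 and 1227. The peaks that touched segments numbered 17, 24, 27 and 30 and had median lengths of 2058, 2076, 2776 and 4281 bp. Over all peaks of the lists the medians were 2335, 2101, 2167 and 2033 bp. A longer peak more easily touches a window, and the part of this in the lengths was not tested. No xChIP peak reached more than 1 segment, whereas 1 xxChIP H1.2 peak reached 3.

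**Figure D1:**
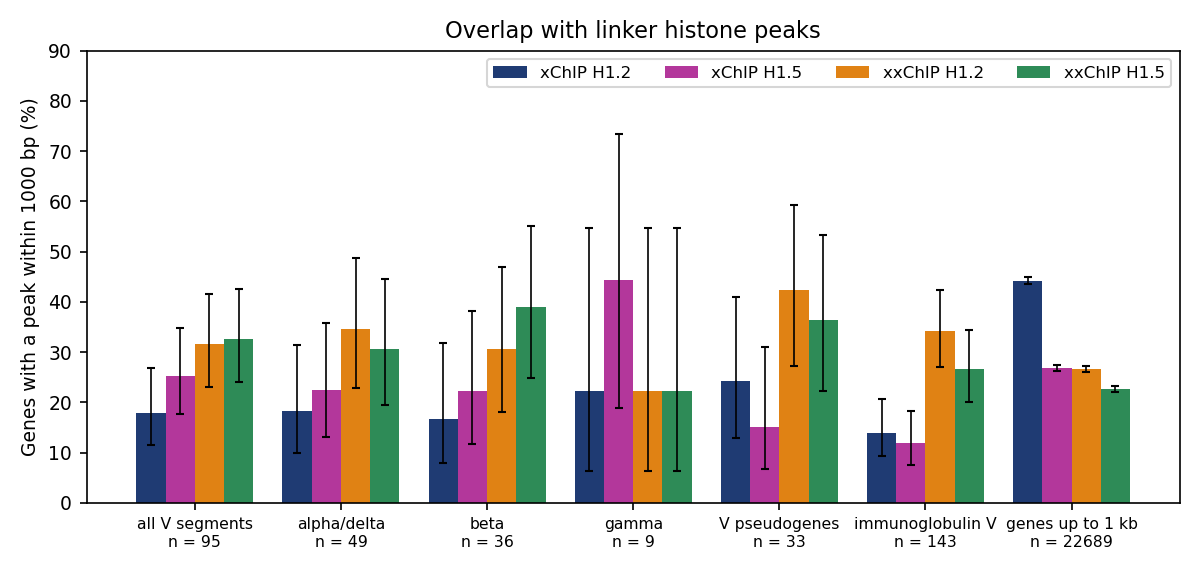
Share of genes with a peak within 1000 bp (y axis, percent) for the V segments, each locus, V pseudogenes, immunoglobulin V segments and genes of up to 1000 bp (x axis), with 1 bar for each peak list and 95% Wilson intervals. The V segments run from 17.9% in xChIP H1.2 to 32.6% in xxChIP H1.5, while short genes run from 44.3% down to 22.7%.

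No V segment was overlapped by all 4 lists. Peaks of 3 lists met at 6 segments, of 2 lists at 24 and of 1 list at 36, and 29 segments (30.5%) had no peak in any list, beside 27.4% of short genes. The shares of short genes with peaks of 1, 2, 3 or all 4 lists were not counted. The other numbers of lists, with the absence of segments in all 4, thus have no background here. Segments with xxChIP peaks alone numbered 27 (28.4%), those with xChIP peaks alone 22 (23.2%), and those with peaks of both protocols 17 (17.9%, beside 19.1% of short genes). Among short genes the order was the other way round, with 18.5% in xxChIP alone and 35.1% in xChIP alone. The antibodies met on the same segment in differing numbers. Both xxChIP lists overlapped 17 segments, out of 30 for H1.2 and 31 for H1.5, and both xChIP lists overlapped 2, out of 17 and 24. These were 17.9% and 2.11% of the V segments, whereas both xxChIP lists overlapped 11.8% of short genes and both xChIP lists 16.9%. For the same antibody, the protocols met at 5 segments (5.26%) for H1.2 and at 5 for H1.5, beside 10% and 6.12% of short genes.

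The alpha/delta locus, from TRAV1-1 to TRDV3 (chr14:22089991-22938690), was the one in which the protocols differed most in relation to the surrounding megabases. In xChIP, H1.2 peaks covered 16.7% of the locus, against 48.2% of the 1 Mb to its left and 62.4% of the 1 Mb to its right. In xxChIP, they covered 26.3% of it, against 11.4% and 5.03%. For xxChIP H1.5 the values were 25.1%, 9.82% and 5.91%. The xChIP H1.5 coverage of 18.2% lay between that of its left flank (16.7%) and that of its right flank (24%). Expressed as the log2 ratio of locus over both flanks, coverage of H1.2 was -1.73 in xChIP and 1.68 in xxChIP, and coverage of H1.5 was -0.16 in xChIP and 1.67 in xxChIP. Low xChIP H1.2 and high xxChIP coverage relative to the flanks coincided here, and both flanks lay on the same side of the locus value for these 3 lists. The flanks together gave 55.3% in xChIP H1.2, above the upper quartile of 1-Mb windows across the genome (34.4%). In xxChIP they gave 8.19% and 7.87%, below the lower quartiles (12.7% and 10.8%). The locus itself lay between the quartiles in both H1.2 lists and above the upper quartile (22.7%) in xxChIP H1.5. The locus holds 3 protein-coding genes, all for olfactory receptors, and its flanks 30 and 35, and GC content was 38.8% in the locus, 43.6% in the left flank and 46.4% in the right flank. The part of gene density and GC content in the difference was not tested.

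Within the alpha/delta locus, 9, 11, 17 and 15 of the 49 segments were overlapped in the 4 lists. These were 18.4%, 22.4%, 34.7% and 30.6%, beside 44.3%, 26.9%, 26.7% and 22.7% of short genes. The Wilson interval for xChIP H1.2 (9.98 to 31.4%) lay below the share of short genes. The intervals for xChIP H1.5 (13.0 to 35.9%), xxChIP H1.2 (22.9 to 48.7%) and xxChIP H1.5 (19.5 to 44.5%) included that share. TRAV22 (chr14:22538820-22539471), whose signal is printed above, had the highest summed coverage, with 100% of its window in xChIP H1.5 and xxChIP H1.2, 9.01% in xxChIP H1.5 and 0% in xChIP H1.2. TRAV21 (chr14:22520773-22521315) was fully covered in both xxChIP lists and at 0% in both xChIP lists. The neighbours TRAV21 and TRAV22 shared 1 xxChIP H1.2 peak of 27031 bp. The segment without a symbol, ENSG00000289723 (chr14:22329530-22330187), was covered to 47.5%, 0%, 97% and 57.1% in the order of lists above. TRAV1-1, the first segment of the locus, had 9.85% in xxChIP H1.2 alone, and TRAV5 was the first segment without a peak in any list.

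The 3 TRDV segments, which serve delta chains, were each overlapped by xChIP peaks alone. TRDV1 (chr14:22564309-22564896) was covered to 73.7% in xChIP H1.5. TRDV2 (chr14:22891362-22892033) was fully covered in xChIP H1.2. TRDV3 (chr14:22938033-22938690), the only minus-strand segment of the locus, was covered to 45% in xChIP H1.5. Their windows were at 0% in both xxChIP lists. Peaks of xChIP alone were found at 11 of the 49 segments of the locus (22.4%) and at 35.1% of short genes. Of the 5 TRAV/DV segments, which can also serve delta chains, 1 was overlapped in each of the 4 lists.

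The alpha/delta locus was not uniform along its length. The stretch from TRAV1-1 to TRAV22, with 30 segments, was covered to 15.2%, 16.4%, 28.5% and 23.3% by the 4 lists in the order above. From TRAV23DV6 to TRAV41, with 17 segments, xxChIP H1.5 was the highest at 34.1% and xChIP H1.2 the lowest at 12.2%. Between TRAV41 and TRDV2 lie 102238 bp without a V segment, and there the xChIP lists reached 36.8% and 39.7% against 33.3% and 17.7% in xxChIP. The longest xChIP peaks of the locus, 27274 bp for H1.2 and 26609 bp for H1.5, lay in this stretch and touched no segment. From TRDV2 to TRDV3 coverage was 15.1%, 6.93%, 4.74% and 9.70%. Of the bases under xxChIP H1.2 peaks in the whole locus, 52.2% were also under xxChIP H1.5 peaks, which is 54.6% of the latter. The xChIP pair shared 52.1% and 47.8%, and H1.2 in the 2 protocols shared 13.9% of the xChIP bases and 8.85% of the xxChIP bases.

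**Figure D2:**
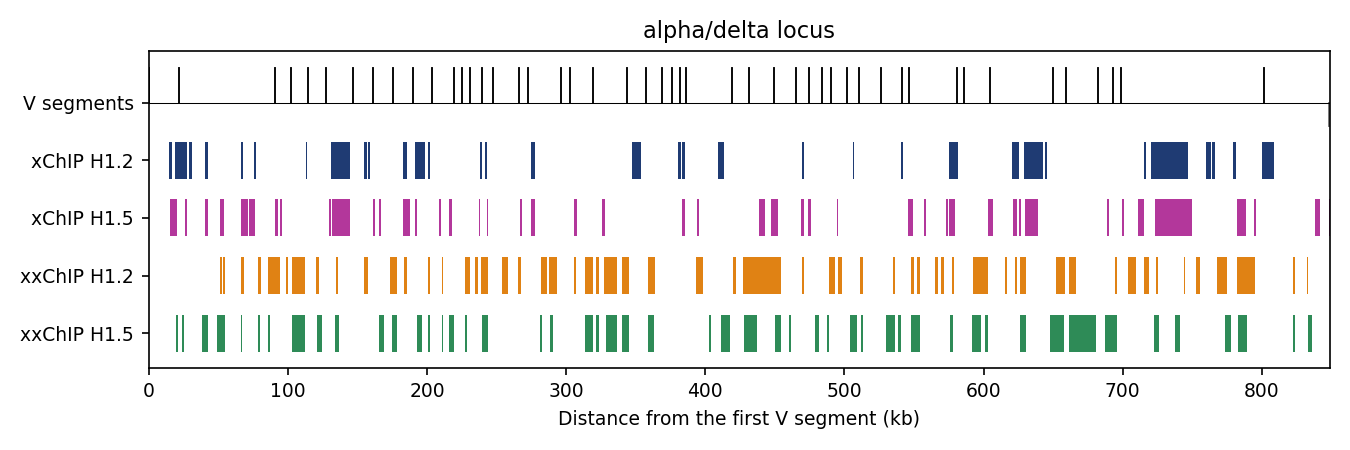
Map of the alpha/delta locus with the distance from the first V segment on the x axis (kb), V segments as ticks (black above the line for the plus strand, below it for the minus strand) and the peaks of the 4 lists as bars drawn to scale. The xxChIP bars fill 26.3% (H1.2) and 25.1% (H1.5) of the locus, the xChIP bars 16.7% and 18.2%, and the longest xChIP bars stand in the stretch without V segments.

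The beta locus, from TRBV2 to TRBV30 (chr7:142000747-142511084), lay closer to its flanks. H1.2 peaks covered 12.6% of it in xChIP and 18.7% in xxChIP, and H1.5 peaks covered 10.9% and 21.5%. In the usual order of lists, the left flank gave 14.8%, 12.1%, 25.7% and 19.2%, and the right flank 25.4%, 17.2%, 22.8% and 22.1%. The log2 ratios over both flanks were -0.66, -0.41, -0.38 and 0.06. The hg19 sequence has 2 gaps of 50000 bp in this locus and 1 in the right flank, and coverage was therefore taken over known bases, 410338 in the locus. Of the 36 segments, 6, 8, 11 and 14 were overlapped. These were 16.7%, 22.2%, 30.6% and 38.9%, beside 44.3%, 26.9%, 26.7% and 22.7% of short genes. The Wilson interval lay below the share of short genes in xChIP H1.2 (7.87 to 31.9%) and above it in xxChIP H1.5 (24.8 to 55.1%). The intervals for xChIP H1.5 (11.7 to 38.1%) and xxChIP H1.2 (18.0 to 46.9%) included that share.

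The segments of the beta locus with the highest summed coverage lay on the minus strand between the gaps, where 20 of the 36 stand in hg19. TRBV6-9 (chr7:142104121-142104553) was covered to 85% in xChIP H1.2, fully in xxChIP H1.2, to 24% in xxChIP H1.5 and to 0% in xChIP H1.5. TRBV5-7 (chr7:142111393-142111859) was fully covered in both xxChIP lists and TRBV11-1 (chr7:142223820-142224284) in both H1.5 lists, and each was at 0% in the other two. A single xxChIP H1.2 peak of 15167 bp held TRBV7-8, TRBV6-9 and TRBV5-7, and a single xxChIP H1.5 peak of 18761 bp held TRBV11-1 and TRBV10-1. At the ends of the locus, TRBV2 had 20.2%, 0%, 11.8% and 0.120%, and TRBV30 had 47.9%, 0%, 0% and 95.7%. TRBV5-1 was the first segment without a peak.

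Along the beta locus the lists took different stretches. The 7 plus-strand segments before the first gap stood in 45070 bp that were covered to 14.2%, 0%, 7.90% and 18.5%. Between the gaps the coverage was 6.38%, 12.5%, 20.4% and 25.6%, and across the 8 plus-strand segments after the second gap it was 9.0%, 13.2%, 21.3% and 22%. The last 62343 bp, which hold TRBV30, PRSS1 and the D, J and C genes of the locus annotated here, had 34.8%, 11.8%, 8.46% and 19.2%. Without V segments other than TRBV30, this end was the one in which xChIP H1.2 was the highest of the lists.

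The gamma locus, from TRGV11 to TRGV1 (chr7:38331217-38407770), is the smallest, with 76554 bp, and no window of its 9 segments was covered by more than 38.7%. Of its 5 V pseudogenes, TRGV7 was covered to 94% in xChIP H1.2 and 100% in xChIP H1.5. TRGVA was covered to 100% in xxChIP H1.5, and the rest reached at most 33.9%. H1.2 peaks covered 10.8% of it in xChIP and 6.77% in xxChIP, and H1.5 peaks covered 17.9% and 18.2%. In the usual order of lists, both flanks together gave 12.8%, 12.2%, 27.7% and 22.9%, and the log2 ratios were -0.24, 0.55, -2.03 and -0.33. The low xxChIP H1.2 value rested on 5186 bp under peaks. Of the 9 segments, 2, 4, 2 and 2 were overlapped. These were 22.2%, 44.4%, 22.2% and 22.2%, beside 44.3%, 26.9%, 26.7% and 22.7% of short genes. The Wilson interval was 18.9 to 73.3% in xChIP H1.5 and 6.32 to 54.7% in each of the other lists. Every interval included the share of short genes. TRGV10 was covered to 24.6% in xxChIP H1.2 and 15.2% in xxChIP H1.5, TRGV3 to 38.7% in xChIP H1.5 alone, and TRGV2 to 18.3% in xChIP H1.2 and 17.1% in xxChIP H1.2. TRGV11 had 25.9% in xChIP H1.2 and TRGV1 had 16.2% in xChIP H1.5, each in 1 list, and TRGV9 had none. The gamma windows include the least unique sequence of all members. Of the 50-bp sequences in the windows of TRGV2, TRGV3, TRGV4 and TRGV5, 65.8%, 50.7%, 65.2% and 57.8% occur once in the genome. The authors kept uniquely mappable reads, and the part of this in the gamma values was not tested.

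The chromosome 9 segment TRBV20OR9-2 (chr9:33617843-33618506), a copy of a beta segment outside the locus, was covered to 84.5% in xChIP H1.5 and was at 0% in the other lists.

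**Figure D3:**
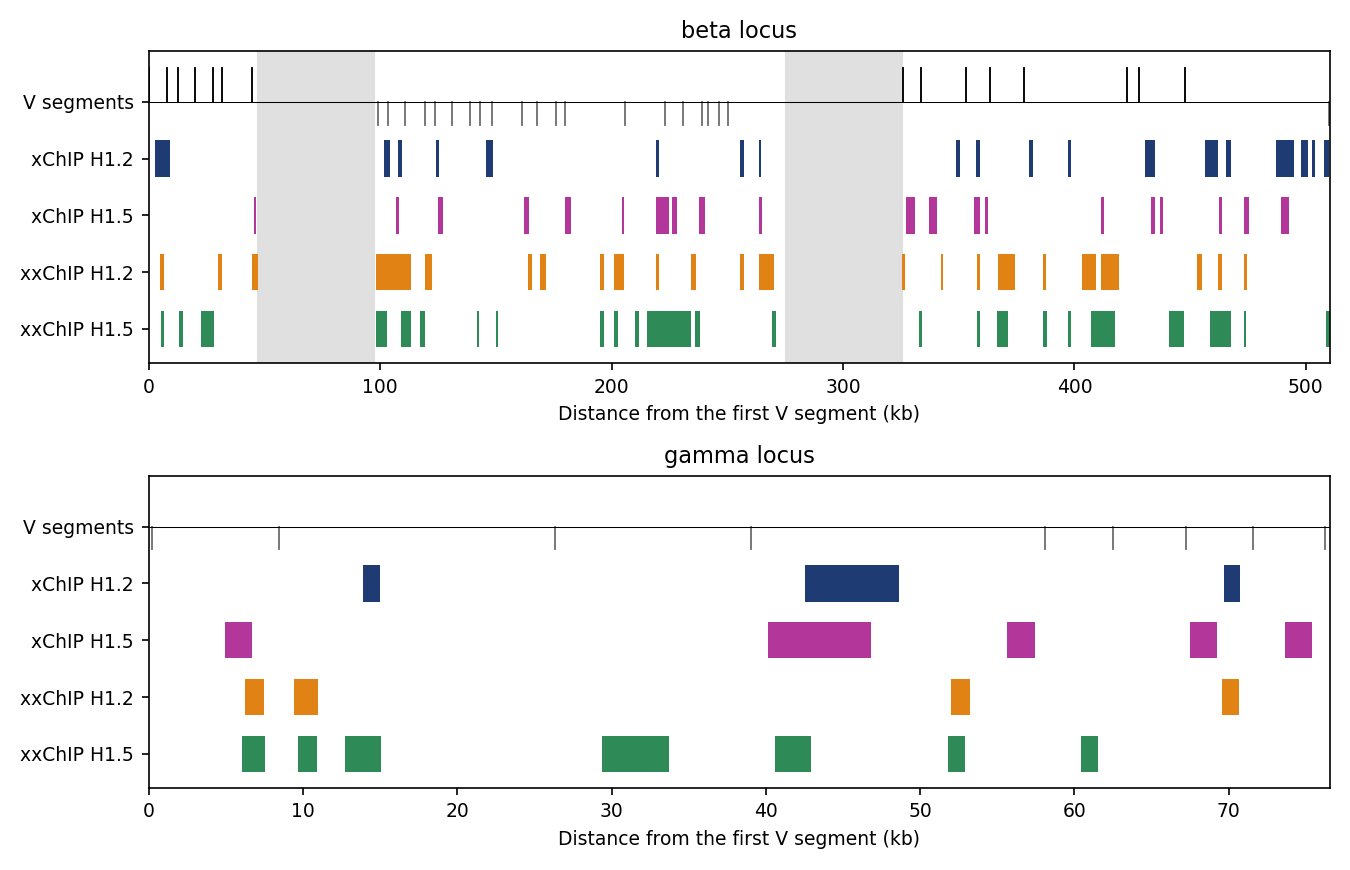
Maps of the beta locus (top) and the gamma locus (bottom) with the distance from the first V segment on the x axis (kb), V segments as ticks (black above the line for the plus strand, grey below it for the minus strand), peaks as bars to scale and assembly gaps of 50000 bp as grey bands. The 9 gamma segments lie on the minus strand, mostly beside rather than under the bars, and the widest beta bars are the xxChIP peaks of 15167 bp and 18761 bp.

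Set beside each other, the loci did not share 1 order of lists. Coverage was above that of both flanks together in 4 of 12 combinations of locus and list, namely both xxChIP lists at alpha/delta, xxChIP H1.5 at beta, where the log2 ratio was 0.06, and xChIP H1.5 at gamma. The xxChIP H1.2 list had its highest ratio at alpha/delta (1.68) and its lowest at gamma (-2.03). Among 2842 windows of 1 Mb across the genome, median coverage was 20.5%, 15.1%, 19.1% and 16.2% in the order of lists. The alpha/delta locus was at or above 36.8%, 70.5%, 74.6% and 82.7% of these windows, so that its xxChIP values fell in the upper part of the range and none was extreme. The beta locus was at or above 19.2%, 17.8%, 48.7% and 70.4% of them, and the gamma locus 11.9%, 69.0%, 4.86% and 58.6%. The loci are shorter than 1 Mb, which widens the range that their values can take.

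**Figure D4:**
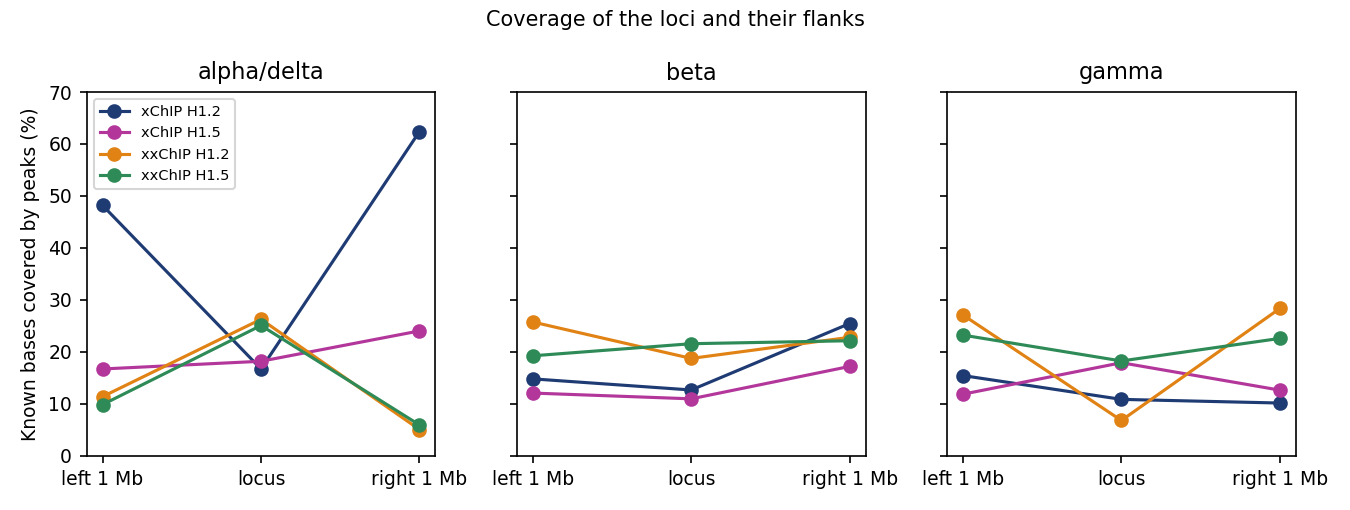
Percent of known bases under peaks (y axis) in the 1 Mb to the left, in the locus and in the 1 Mb to the right (x axis) of the alpha/delta, beta and gamma loci, with 1 line for each list. At alpha/delta xChIP H1.2 falls from 48.2% to 16.7% and returns to 62.4%, while xxChIP H1.2 goes from 11.4% to 26.3% and 5.03%.

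In most combinations the windows of the segments (gene with 1000 bp on each side) were less covered than the rest of the locus. This rest includes V pseudogenes, the 102238 bp between TRAV41 and TRDV2, and the D, J and C genes of beta. Their part in the difference was not tested. In 11 of 12 combinations of locus and list, coverage inside the windows of the segments was below that of the rest of the locus, the exception being xxChIP H1.5 at beta (22.9% inside, 21.3% outside). In the alpha/delta locus H1.2 peaks covered 9.95% inside and 17.8% outside in xChIP, and 20.9% and 27.2% in xxChIP. For H1.5 the values were 12.7% and 19.2% in xChIP, and 15.5% and 26.7% in xxChIP. In the gamma locus xxChIP H1.5 covered 3.25% inside and 24.5% outside, where the pseudogene TRGVA lies with its window fully covered.

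By distance from the 3′ end, where the recombination signal begins, coverage was lower near the end than away from it in 10 of 12 combinations, 4 at alpha/delta, 2 at beta and 4 at gamma. The bases within 1000 bp of that end lie inside the windows compared above, so this is not a separate result. Short genes were not profiled in this way. Around alpha/delta segments, xxChIP H1.5 covered 14.7% of the bases within 1000 bp of that end and 25.6% at 5000 to 10000 bp, and xxChIP H1.2 covered 20.5% and 26.7%. The xChIP lists gave 8.24% and 13.9% for H1.2 and 13.4% and 14.3% for H1.5. Around beta segments, xxChIP H1.2 had 13.8% near the end and 20.8% away from it, and xxChIP H1.5 had 23.1% and 21.8%. The xChIP lists gave 9.74% and 11% there for H1.2 and 8.90% and 8.14% for H1.5. Around the 9 gamma segments, the 4 lists gave 6.23%, 8.22%, 4.23% and 4.21% near the end. Away from it they gave 12.5%, 17.6%, 11.5% and 16.9%. Neighbouring segments enter each other's distant steps, and the steps ranged widely, from 12.5% to 36.4% for xxChIP H1.5 at alpha/delta.

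**Figure D5:**
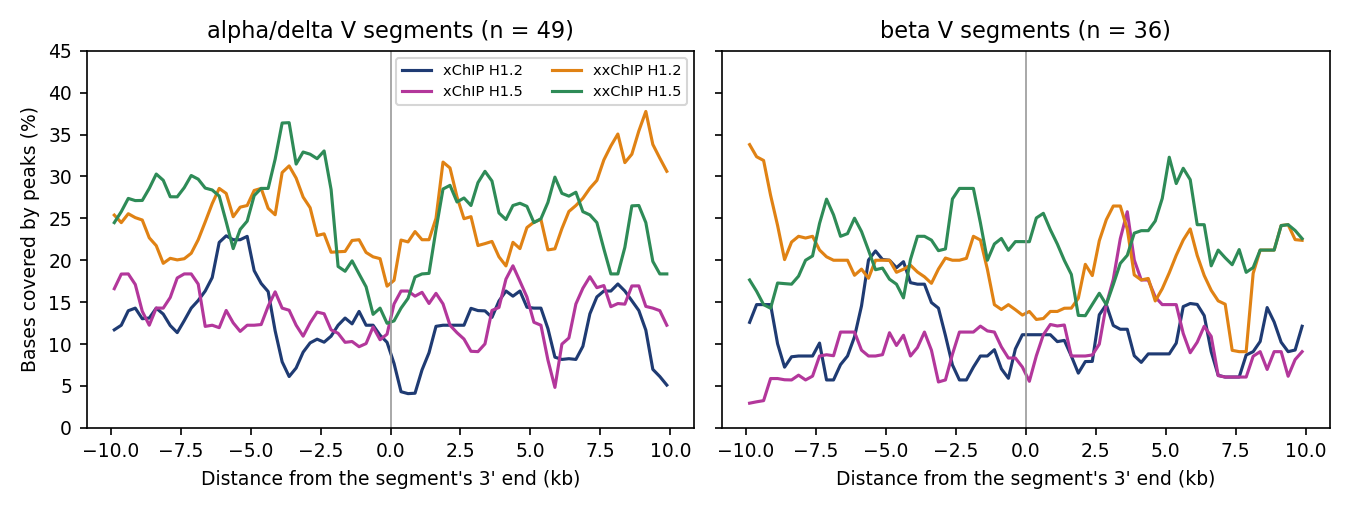
Percent of bases under peaks (y axis) by distance from the 3′ end of the segment (x axis, kb, in steps of 250 bp, positive towards and past the recombination signal) for the 49 alpha/delta and 36 beta segments, with 1 line for each list. At alpha/delta the xxChIP H1.5 line is lowest next to the 3′ end (14.7% within 1000 bp) and higher further away (25.6%).

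The loci differed in how closely the sequence after the segments matched the signal. An exact CACAGTG directly after the segment, on its own strand, was present at 44 of 95 segments, against 0.549% of 22595 other genes of at most 1000 bp. These other genes include V pseudogenes and immunoglobulin V segments, which were not counted apart. The exact heptamer stood at 29 of 49 alpha/delta, 8 of 36 beta and 7 of 9 gamma segments, and with up to 2 mismatches at 93 of 95. An exact ACAAAAACC after the 23-bp spacer was present at TRAV19 and TRDV1. Both the presence and the absence of a match describe these letters and not the use of a site. The full signal lay at least partly under a peak at 9, 10, 13 and 14 segments in the 4 lists, and at 0 of the 9 gamma segments in every list. Around all segments, peaks covered 8.54%, 11.9%, 16.2% and 16.7% of the bases within 1000 bp of the 3′ end. The same position was not counted for short genes. Among gamma pseudogenes, it lay under both xChIP lists at TRGV7 and under xxChIP H1.5 at TRGVA. Segments with an exact heptamer made up 7 of the 17 overlapped and 14 of the 24 overlapped in the xChIP lists, and 14 of 30 and 11 of 31 in the xxChIP lists.

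The loci also differed in base composition. The median GC content of the windows was 39.5% at alpha/delta, 46.8% at beta and 46.1% at gamma. Over all loci, windows overlapped by H1.2 peaks had a median GC content of 43.4% in xChIP and 41.5% in xxChIP, and the others 42.1% and 42.8%. For H1.5 the overlapped windows had 43.7% and 43.4%, and the others 42.6% and 42.3%. These medians mix loci of unlike GC content, and within alpha/delta the xxChIP H1.2 values were 39.6% and 39.4%. A median of 98.0% of the 50-bp sequences in a window occurred once in the genome, and 88 of 95 windows reached 90%.

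The V pseudogenes and the joining segments differed in the order of their lists. Of 33 V pseudogenes, 26 belong to the 3 loci, and of these 6 and 4 were overlapped in xChIP and 12 and 11 in xxChIP. The other 7 lie on chromosome 9 and were overlapped in 2, 1, 2 and 1 cases. Over all 33, the shares were 24.2%, 15.2%, 42.4% and 36.4%, beside 44.3%, 26.9%, 26.7% and 22.7% of short genes. Of 78 joining segments, 31, 8, 9 and 2 were overlapped (39.7%, 10.3%, 11.5% and 2.56%). Short genes too had their highest share in xChIP H1.2, at 44.3%, and the joining segments lay below the short genes in every list. All 8 TRBJ windows were reached by xChIP H1.2 peaks, with a median of 95.9% covered, 4 by xChIP H1.5 and 0 by either xxChIP list. The 61 TRAJ segments were overlapped in 22, 3, 7 and 0 cases. TRBD1, a diversity segment, was covered to 100% in xChIP H1.2, and TRBC2, which encodes a constant region of the beta chain, to 74.1%, both with 0% in the xxChIP lists, whereas TRAC, the constant gene of the alpha chain, had 30.3% in xxChIP H1.5 alone. The other diversity segments, TRDD1, TRDD2 and TRDD3, were at 0% in every list. Of the other constant genes, TRDC had 9.93% and TRGC1 had 13.5%, each in xChIP H1.5 alone. TRGC2 had 15.1%, 39.1%, 8.48% and 8.50% in the order of lists. J segments lie close together, so a few peaks decide their counts.

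Genes inside and beside the loci had values of their own. PRSS1, the trypsinogen gene inside the beta locus, was covered to 85.3% in xChIP H1.2 and 49.4% in xxChIP H1.5. SALL2, a transcription factor gene to the left of the alpha/delta segments, was covered to 65.3% in xChIP H1.2, 19.3% in xChIP H1.5 and 0% in both xxChIP lists. AMPH, next to the gamma locus, had 5.54% and 6.03% in xChIP but 49.9% and 34.3% in xxChIP. The immunoglobulin V segments, which are assembled in the same way in B cells, were overlapped in 20 (14%) and 17 (11.9%) of 143 cases in xChIP and in 49 (34.3%) and 38 (26.6%) in xxChIP. As among the T cell receptor V segments, more of them were overlapped in xxChIP than in xChIP for each antibody, and the difference between both families was not tested.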

How the data were processed

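The authors mapped paired-end reads with Bowtie2 (hg19, unique alignments), ran MUSIC with default settings on every replicate and combined the 3 replicates of a group into 1 list. The deposited values are peak positions (chromosome, start, end) with neither score nor count, so depth and replicate spread are unknown. Starts were read as counted from 0. Genes came from GENCODE release 44 mapped to GRCh37. Segments were overlapped when at least 1 bp of the gene with 1000 bp on each side lay in a peak. Locus coverage was the share of known bases under peaks from the first to the last TR_V_gene, and flanks were 1 Mb on each side. Shares carry 95% Wilson intervals. No test was run, since each group has 1 list. The members and lists were chosen with earlier results of these data known. Named segments were any overlapped by all lists (0 found), the first and last of each locus, the 3 with the highest summed coverage, the first without a peak, the chromosome 9 segment and the TRDV class. Shared peaks, and TRGV segments of low uniqueness, were named after their values were seen. TRBC1 and PRSS2 were not analysed here. Counting steps were tested on simulated data. Alternatives changed the margin, the overlap, the members, the peak length, the flanks, the locus span and the measure. The tools were samtools 1.23.1, matplotlib 3.10.9, pandas 2.3.3, statsmodels 0.14.6, pyfaidx 0.9.0.4, numba 0.67.0, numpy 2.4.6 and Python 3.11.15.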

Additional observations from a re-analysis of the deposited data

Results flagged for a closer look

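In the alpha/delta locus the log2 ratio of locus over flank coverage had opposite signs in the protocols, -1.73 in xChIP and 1.68 in xxChIP for H1.2, and -0.16 in xChIP and 1.67 in xxChIP for H1.5. In the beta locus the ratio for H1.5 was -0.41 in xChIP and 0.0626 in xxChIP. In the gamma locus it was 0.55 in xChIP and -0.33 in xxChIP for H1.5, and coverage in xxChIP minus that in xChIP was -4.06 percentage points for H1.2 and 0.338 for H1.5. Counted by peak centres, the xChIP H1.5 ratio at alpha/delta was 0.12 and the xxChIP H1.5 ratio at gamma 0.72, and with the left flank alone the former was also 0.12, so that these signs were not opposite under those settings. At beta, the xxChIP H1.5 ratio turned to -0.0284 with peaks of at least 2000 bp and to -0.0378 with the right flank alone. These differences were not tested, since each value comes from 1 merged list.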

How the results depend on the processing

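The shares of V segments overlapped moved with the window and the overlap rule. With the xChIP lists first, and H1.2 before H1.5 in each protocol, the gene alone gave 10.5%, 12.6%, 17.9% and 16.8%, a margin of 5000 bp gave 48.4%, 57.9%, 67.4% and 68.4%, and at least 50% of the window covered gave 8.42%, 9.47%, 13.7% and 14.7%. Peaks of at least 2000 bp gave 9.47% and 12.6% in the xChIP lists and values within the main interval in xxChIP (26.3% and 25.3%). Adding pseudogenes, or keeping windows with at least 90% unique sequence, left all 4 shares within the main interval. Short genes moved too: xChIP H1.2 stayed below them and xxChIP H1.5 above them in all of these window and peak settings. For locus over flanks, a result was taken as moved when the ratio itself changed by over 1.5 times or its log2 changed sign. At alpha/delta, peak centres per Mb gave -0.75 (H1.2) and 0.12 (H1.5, reversed) in xChIP, and 0.94 and 0.75 in xxChIP. Flanks of 2 Mb gave 1.08 (H1.2) and 1.02 (H1.5) in xxChIP, and peaks of at least 2000 bp gave 2.33 for xxChIP H1.5. The left flank alone, an alternative chosen after seeing the data like the right flank alone, gave 0.12 for xChIP H1.5 (reversed), and the right flank alone 2.38 for xxChIP H1.2. At beta, xxChIP H1.5 reversed to -0.0284 with peaks of at least 2000 bp and to -0.0378 with the right flank alone. At gamma, xChIP H1.2 reversed to 0.0331 with flanks of 500 kb and to 0.10 with the right flank alone, and was -1.20 with flanks of 2 Mb. Peak centres gave -0.11 (H1.2) and 0.72 (H1.5, reversed) in xxChIP, and the span of all T cell receptor genes gave -0.98 for xxChIP H1.5. No gamma peak of xxChIP H1.2 reached 2000 bp, so that setting gave no value. The cause of these changes was not tested. No paired analysis was possible because each list merges its replicates, and no replicate could be left out for the same reason.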
